A study of Homo sapiens with 2 samples.

Results

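The genes of the interferon regulatory factor (IRF) family and the chromosomal neighbourhood of IRF1 were examined in a list of IRF1 binding summits from NB4 cells. This cell line comes from a human acute promyelocytic leukemia, carries the PML-RARA fusion and is the only line of the study. The study assayed IRF1 by chromatin immunoprecipitation and sequencing in 2 libraries, 1 of control cells given DMSO and 1 of cells given all-trans retinoic acid (ATRA), each for 4 hours. The summit list analysed here carries the name of the ATRA library. Control values were not used here, and no difference between the groups was measured. Members were chosen by gene name: every summit whose nearest gene was IRF1, C5orf56 (the earlier symbol of CARINH, the non-coding transcript beside IRF1), IRF2, IRF5, IRF7, IRF8 or IRF9, at any distance, and every summit in a window of 0.5 Mb around IRF1 on chromosome 5, which reaches from P4HA2 to KIF3A. This gave 6 of the 1986 summits of the list. Of the 7 genes, 5 had a summit and 2, IRF8 and IRF9, had none, beside 6.38% of 19974 protein-coding genes that were the nearest gene of a summit.

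IRF proteins are transcription factors that share a DNA-binding domain with conserved tryptophans, which reads GAAA repeats in interferon-stimulated response elements. IRF1 is induced by interferon gamma and activates many genes of antigen presentation and antiviral defence, and IRF2 competes with it at shared sites. IRF9 joins phosphorylated STAT proteins downstream of the type I interferon receptor. IRF5 and IRF7 act below Toll-like receptors and drive cytokine and interferon genes, and IRF8 is a lineage factor of monocytes and dendritic cells. The promoter of IRF1 is itself a known target of STAT proteins, which bind a palindromic STAT element.

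Promoter sequences were taken from RefSeq (GRCh38.p14) as windows of 300 bases, from 250 before to 50 after a start site. The list uses hg38, the same build. Of the 7 genes, 5 matched an entry, with 9 windows in all, and IRF2 and IRF7 did not. A member summit lay in 2 of the 9 windows, that of CARINH and that of the third of 4 start sites of IRF5. These are shown, with the promoter of IRF1 for comparison. Capitals mark matches to the IRF element in CARINH (GAAA, any 2 bases, GAAA), to the ETS-IRF composite element in IRF5 (GGAA, any 2 bases, GAAA) and to the STAT element in IRF1 (TTC, any 3 bases, GAA), each searched on both strands. Each sequence runs 5′ to 3′ along the gene. The IRF5 and IRF1 sequences are the 250 bases before the start site.
CARINH, chr5:132410679-132410978, plus strand: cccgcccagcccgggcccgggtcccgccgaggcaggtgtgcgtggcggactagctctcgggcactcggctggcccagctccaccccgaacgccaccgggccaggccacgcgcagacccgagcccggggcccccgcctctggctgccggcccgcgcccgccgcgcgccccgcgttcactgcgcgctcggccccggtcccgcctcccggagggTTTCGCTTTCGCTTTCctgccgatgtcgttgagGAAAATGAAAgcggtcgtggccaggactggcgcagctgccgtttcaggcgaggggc
IRF5, chr7:128940420-128940669, plus strand: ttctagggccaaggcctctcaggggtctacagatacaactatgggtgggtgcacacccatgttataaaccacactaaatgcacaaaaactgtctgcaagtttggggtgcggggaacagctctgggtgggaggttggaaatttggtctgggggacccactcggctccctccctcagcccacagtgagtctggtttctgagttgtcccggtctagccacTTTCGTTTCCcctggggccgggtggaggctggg
IRF1, chr5:132490774-132491023, minus strand: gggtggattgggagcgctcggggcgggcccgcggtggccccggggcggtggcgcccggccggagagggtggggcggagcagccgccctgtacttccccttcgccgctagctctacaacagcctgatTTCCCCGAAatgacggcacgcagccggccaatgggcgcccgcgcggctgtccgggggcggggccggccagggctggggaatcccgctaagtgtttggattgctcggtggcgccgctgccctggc

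The strongest summit of the group was that of CARINH. It lay at chromosome 5 position 132410885 with a score of 250.0 and ranked 11 of 1986, above 99.4% of the list. The score is the authors' own value per summit. Its scale is not stated in the sources used here, and it serves only to order summits within this list. The authors' annotation placed the summit in exon 1 of 4 of the non-coding transcript, 112 bp downstream of its transcription start site (TSS). In the RefSeq table the CARINH span begins later, and the summit lay 44 bp upstream of that start. The CARINH summit was higher than 94.6% of the 37 summits in non-coding transcripts, whose median score was 18.5. The summits next above it were those of ISG15, a ubiquitin-like modifier induced by interferon (250.8, -61 bp from its TSS), and of PSMB1, a proteasome subunit (253, at 93673 bp). Next below were PARP9, an ADP-ribosyltransferase of the interferon response (240.04, at -5 bp), and APOL2, an apolipoprotein L gene (233, at 27 bp).

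The sequence under the CARINH summit held 3 matches to the IRF element. They spanned positions 132410890 to 132410899, 132410896 to 132410905 and 132410923 to 132410932. The first pair overlap, so that the stretch reads as 3 evenly spaced GAAA cores on the minus strand. Their centres lay 9.5, 15.5 and 42.5 bp from the summit, towards the transcript. Over all 35116 promoter windows of the table, 3.57% held at least 1 IRF element and 13 windows (0.037%) held 3 or more. The GC content of the CARINH window was 75.7%, against a median of 58.7% over all windows. The window had no match to the longer core of the response element (AGTTTC, any 2 bases, TTTC), which 0.273% of all windows held.

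The second summit at the locus was weak. It had a score of 12.5 at chromosome 5 position 132466516 and ranked 1888, above 4.93% of the list and 4.58% of the 698 intronic summits. It was assigned to IRF1 because that start site was nearest, 24257 bp away, but it lay 15.1 kb beyond the 3′ end of IRF1, in intron 3 of 3 of the CARINH transcript and 9.53 kb inside the end of the CARINH span. The 2 summits were 55.6 kb apart. Both lay on the 3′ side of IRF1, the CARINH summit 79.9 kb from the IRF1 start site. No summit lay within the IRF1 span (chromosome 5, 132481609 to 132490773) or its promoter window. The IRF1 promoter sequence shown above held 1 STAT element, at positions 132490889 to 132490897, at -124 to -116 bp from the start site, and no IRF element or ETS-IRF composite. STAT elements were present in 7.66% of all windows.

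**Figure D1:**
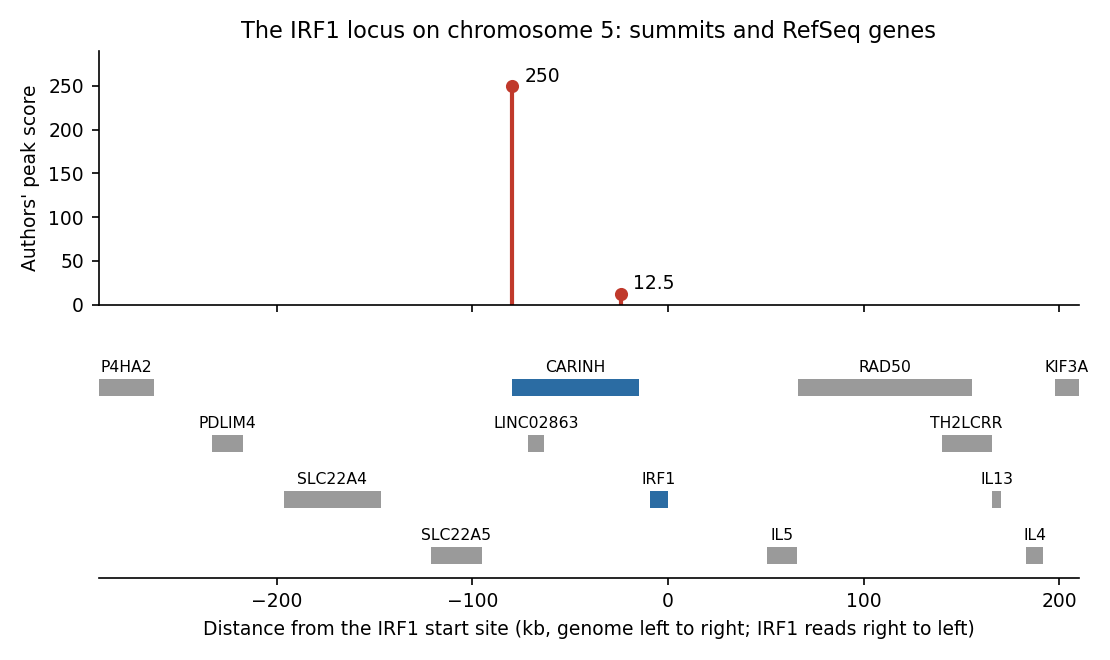
Map of the 0.5 Mb of chromosome 5 around IRF1, with the authors' peak score of each summit (upper panel, linear axis) and RefSeq gene spans (lower panel, microRNA genes, their host gene and unnamed loci not drawn) against distance from the IRF1 start site in kb. The 2 summits stand at scores of 250.0, at the start of CARINH, and 12.5, within its last intron, and none stands over IRF1.

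The rest of the 0.5 Mb window had no summit. The window's 2 summits come to 4 per Mb, beside 0.656 per Mb over the annotated chromosome spans. The window is short and was chosen with results of this list known, so its density is a description and no measure of enrichment. RefSeq places 10 protein-coding genes there in full or in part, and 0 of the 10 had a summit inside its span. Few genes do: even with the span extended by 10 kb, 7.45% of 19974 protein-coding genes had a summit. To the left of CARINH these are P4HA2, a collagen prolyl hydroxylase, PDLIM4, a LIM-domain protein, and the organic cation and carnitine transporters SLC22A4 and SLC22A5. SLC22A5 was the nearest of them to the CARINH summit, its end lying 15.3 kb away. To the right of IRF1 lie IL5, IL13 and IL4, cytokines of type 2 immunity, the DNA repair gene RAD50, and KIF3A, a kinesin motor. Of the 6 long non-coding RNA genes of the window, CARINH alone had a summit inside its span. The neighbouring summits outside the window lay 5.50 Mb to the left (score 30.8) and 1.15 Mb to the right (28.6) of the window's own summits. At least 2 summits within 100 kb of the gene span, as for IRF1, were found for 5.02% of 19974 protein-coding genes.

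IRF2, the antagonist of IRF1, carried more summits than any other member gene. The higher of the 2 assigned to it had a score of 62.3 at chromosome 4 position 184474802, 230 bp upstream of the TSS, and ranked 332. It was above 78.6% of the 384 summits that the authors' annotation places in promoters, whose median was 27.6. This position is also the first base of IRF2-DT in RefSeq, a divergent non-coding transcript that starts on the other side of the shared promoter. The other, with a score of 21.7, lay 702 bp away at position 184474100 in intron 1 of 8 and in a CpG island, 472 bp downstream of the TSS. It ranked below the median of the list, above 40.6% of summits, and 21 other summits had exactly the same score.

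A further summit lay inside IRF2 but was assigned to another gene by distance. It stood at position 184417404 in intron 5 of 8, 57146 bp from the end of the span where transcription starts, with a score of 94.0 and rank 184. The authors' file gives a MIR3 repeat, an old short interspersed element, at this place, and names LOC102723766 (LINC02362 in RefSeq) as the nearest gene, at -35098 bp from its TSS. This intronic summit scored higher than both summits at the IRF2 promoter and above 92.7% of intronic summits, whose median was 24.8. It is not among the 6 member summits, since it carries another gene's name.

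IRF7 and IRF5 each had 1 summit, close to a start site and of nearly the same score. The IRF7 summit had a score of 45.7 at chromosome 11 position 615701, just inside the gene at 27 bp from the TSS, and ranked 470. It lay inside the IRF7 span and 882 bp from the span of CDHR5, a cadherin-family gene. The IRF5 summit had a score of 44.0 at chromosome 7 position 128940639, 31 bp upstream of a TSS, and ranked 498. These summits were above 70.3% and 68.5% of the promoter summits, respectively. Scores recur in the list: 1 other summit shared the IRF7 value and 3 others that of IRF5. Over the list, 1221 of 1986 summits shared their score with another.

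The IRF5 summit used the third of the 4 start sites that have a window. The ETS-IRF composite shown above spans positions 128940637 to 128940646, so the summit lies within it, 2.5 bp from its centre. Such a composite is known as a site where an ETS factor such as PU.1 and an IRF bind together. Composites were present in 2.82% of all windows, and the other 3 windows of IRF5 had none. No IRF5 window held the full IRF element. The shorter pair (GAAA, any 2 bases, GA), which is part of the IRF element and was found in 20.3% of all windows, occurred in the second and the fourth window of IRF5, where no summit lay, and in the CARINH window.

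**Figure D2:**
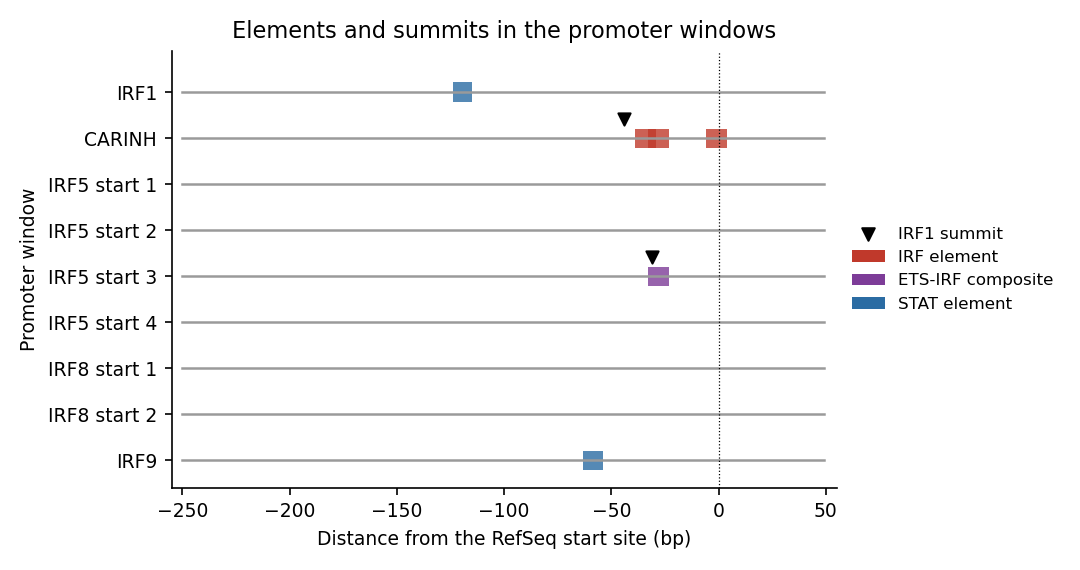
Matches to the IRF element, the ETS-IRF composite and the STAT element (coloured boxes) and IRF1 summits (triangles) in the 9 promoter windows of IRF1, CARINH, IRF5, IRF8 and IRF9, against distance from the RefSeq start site in bp. Both summits stand within 10 bp of the centre of an element, at -44 bp in CARINH and -31 bp in the third IRF5 window, and the windows of IRF1 and IRF9 hold a STAT element without a summit.

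IRF8 and IRF9 were the nearest gene of no summit. The summit closest to IRF9 (chromosome 14, 24161265 to 24166565) was 14.6 kb from its span, at position 24146616, with a score of 127. The authors' annotation places it in the promoter of PSME2, a proteasome activator subunit, and the RNF31 span also lies within 1 kb of it. The highest summit of the list, that of PSME1, lies on the same side. The IRF9 window held a STAT element at positions 24161202 to 24161210 and no IRF element. The summit closest to IRF8 (chromosome 16, 85899162 to 85922609) was intergenic, 64.6 kb beyond its span at position 85987250, with a score of 85.5 and rank 226. The nearest TSS to it was that of MIR6774, at 68903 bp. The 2 windows of IRF8 held none of the 5 elements searched. Both genes were nevertheless closer to a summit than most: the median protein-coding gene was 363 kb from a summit, and 8.46% of genes had a nearer summit than IRF9 and 17.5% a nearer one than IRF8. An absent summit does not show absent binding, because the read depth and the background of the calling are unknown.

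**Figure D3:**
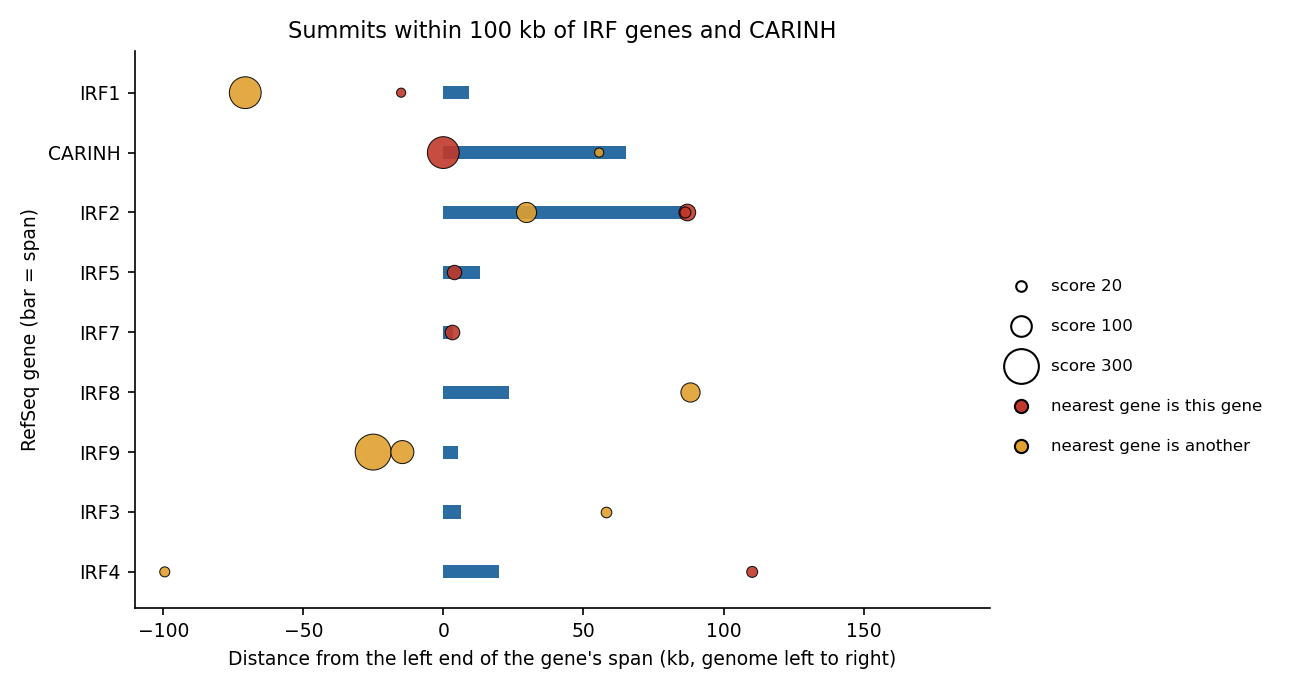
Summits within 100 kb of the spans of the IRF genes drawn and CARINH, with position in kb from the left end of the span (bar) and circle area rising with the authors' peak score. Red circles are summits whose nearest gene is the gene of that row: IRF2, IRF5, IRF7 and CARINH carry them at the span or its edge, while IRF8 and IRF9 have orange circles only, summits of other genes.

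IRF3 and IRF4 had no summit near a start site. IRF3, which is activated by viral sensing, was the nearest gene of no summit, and the closest lay 51.8 kb from its span, with a score of 19.98. IRF4, the lymphoid relative of IRF8, was the nearest gene of 1 summit with a score of 21.7, 110226 bp from its TSS and in intron 25 of 29 of a transcript, inside the span of EXOC2, an exocyst gene. Of the 6 protein-coding members, 4 were thus the nearest gene of a summit at any distance, against 6.38% of all protein-coding genes, and 3, IRF2, IRF5 and IRF7, within 10 kb of the TSS, against 3.36%. With the RefSeq span extended by 10 kb in place of the nearest gene, the same 3 had a summit, against 7.45% of all protein-coding genes. The members were chosen with results of this list known, so these counts describe the genes and test nothing.

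As a group, the member summits were mostly close to start sites, with scores from near the top of the list to near its bottom. Of the 6, 5 were at most 1 kb from a TSS, as were 27.1% of all summits. The list's median score of 25.2 was exceeded by 4 of the 6, and by 989 of all 1986 summits. The scores were 250.0, 62.3, 45.7, 44.0, 21.7 and 12.5, with a median of 44.9, close to the upper quartile of the whole list (44.04). The authors' classes were promoter for 3, intron for 2 and non-coding exon for 1. Of all 1986 summits, 384 were promoter, 698 intron and 37 non-coding. With 1 library there is no replicate error on any of these values.

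**Figure D4:**
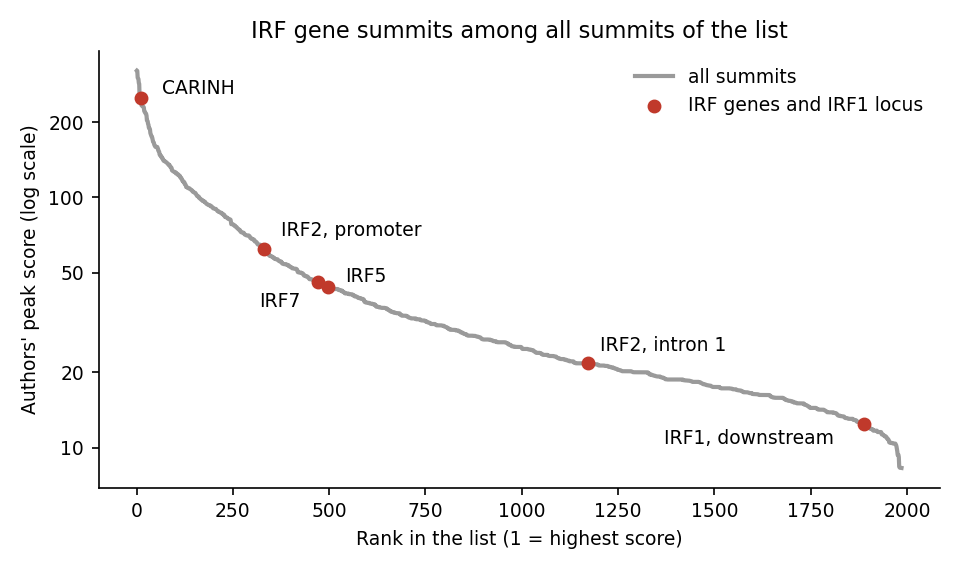
Authors' peak score (log axis) against rank for all 1986 summits (grey line), with the 6 summits of the IRF genes and the IRF1 locus in red. The CARINH summit stands near the top at rank 11, the summits of IRF2, IRF7 and IRF5 between ranks 332 and 498, and the summit assigned to IRF1 near the bottom at rank 1888.

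The CARINH and IRF5 promoters were compared with the other promoters that held a summit. Of 302 windows with a summit, some of which overlap, 117 (38.7%) held an IRF element, against 3.27% of the 34814 windows without. The element's centre lay a median of 15.5 bp from the summit in these 117 windows, and its nearest copy in CARINH was 9.5 bp away. ETS-IRF composites, as in IRF5, were present in 15.2% of the windows with a summit and 2.71% of those without. For the STAT element of the IRF1 and IRF9 windows these shares were 7.62% and 7.66%. The 255 summits in a window had a median score of 19.6 with 0 IRF elements (157 summits), 46.7 with 1 (75 summits), 65.7 with 2 (18 summits) and 59.8 with 3 or more (5 summits). CARINH was the highest of the last group, which ranged from 10.4 to 250.0. IRF5, with 0 elements, stood above the median of its group. These are descriptions across the promoters of 1 library.

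**Figure D5:**
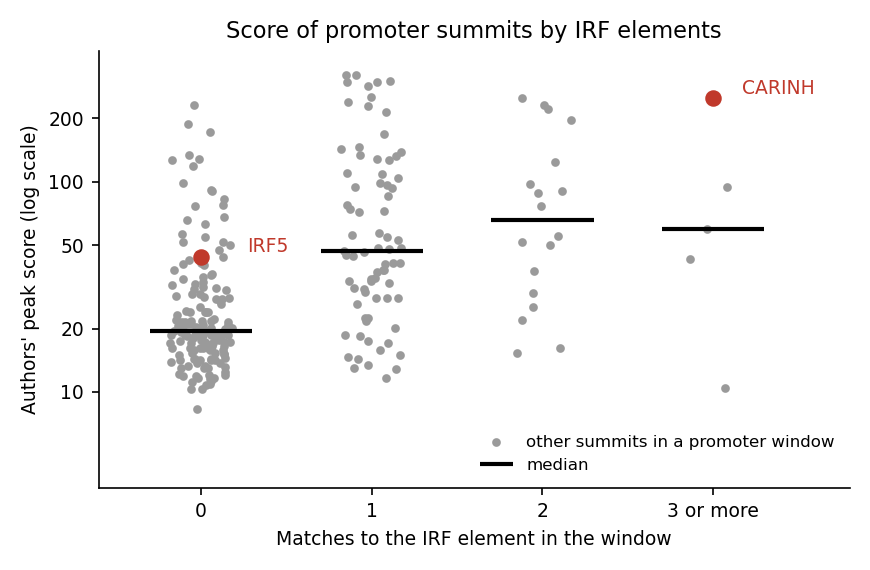
Authors' peak score (log axis) of the 255 summits that lie in a promoter window, by the number of matches to the IRF element in it, with the median of each group as a bar. CARINH and IRF5 are in red: CARINH is the highest of the 5 summits with 3 or more matches, and IRF5 stands above the median of 19.6 of those with 0.

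To place the family in its pathway, 34 other genes of interferon and IRF signalling were read by role. Of these, 10 were the nearest gene of a summit at any distance, beside 6.38% of all protein-coding genes, and 6 within 10 kb, beside 3.36%. The list was trimmed, since some listed genes are not reported here, and each count by role is of the genes that remain. Feedback regulators had summits in 3 of 3 genes: USP18, which removes ISG15 (212, at 107 bp), SOCS1, an inhibitor of JAK kinases (128, at -144 bp, and 21.3, at 30588 bp), and SOCS3 (12.6, at 30609 bp). Of 2 signal transducers, STAT2, the partner of IRF9, had summits of 74.8 at -228 bp and 20.8 at 124 bp, and STAT3 had none. Of 3 kinases, TYK2 had a summit of 13.3 at 85 bp, and JAK1 and JAK2 had none. The 4 interferon receptor genes, IFNAR1, IFNAR2, IFNGR1 and IFNGR2, had none. Of 9 genes that activate IRF3, IRF5 or IRF7, MYD88, the Toll-like receptor adaptor, had a summit of 26.2 at 149 bp and the others had none. Of 4 DNA-binding partners, BATF, a bZIP factor, had a summit of 46.5 at -7278 bp, and SPI1, which encodes PU.1, had none. Of 4 interferon genes, IFNB1 had a distant one of 13.7 at -18537 bp. Of the 3 genes of IRF2-binding proteins, IRF2BPL had a pair of strong distant summits, 230 at 74901 bp and 201 at 66549 bp. The summit of 201 lay in a simple repeat and inside the span of another RefSeq gene, LINC01629.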

How the data were processed

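IRF1 ChIP-seq was made from 1 control and 1 ATRA-treated library of NB4 cells, and 1 deposited summit list was used, without replicates. The submitters' processing notes name Bowtie2 2.2.9, MACS 1.4.2 and hg38. Per the file headers, the authors annotated summits with HOMER's annotatePeaks.pl. The deposited peak score was used as given. Its scale, the threshold, the depth and the background of peak calling are not stated in these sources. With control cells as background, an unlisted site could be bound equally in both libraries.

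Genes were matched by Entrez identifier to RefSeq (GRCh38.p14), which held the nearest gene of 1977 of 1986 summits. Ranks, percentiles (share of summits with a lower score), gene distances and motif matches were computed with Python 3.11.15 and pandas 2.3.3, and the motif search was tested on simulated data. No test was run, because 1 library per group allows none. Named genes are the members, IRF3 and IRF4, and genes of the window or within 1 kb of a member summit. Also named are pathway genes with a summit within 10 kb and the score neighbours of the strongest member. Others near IRF8 and IRF9 and genes at other intronic or distant summits were added after seeing the values. So were pathway genes with only distant summits or with none. The members and lists were chosen with earlier results of these data known. Some listed genes are not reported here.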

Additional observations from a re-analysis of the deposited data

How the results depend on the processing

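No paired analysis was possible because there was 1 library per group, and no replicate could be left out. The number of members with a summit was 5 and stayed between 4 and 5 under 5 alternatives. The number of member summits was 6, and between 4 and 6 under 4 alternatives. Their median score was 44.9, and 45.7 with summits within 10 kb of the TSS, within 1 kb, or with the highest summit of each gene. Among the 993 highest-scoring summits the IRF1 locus kept 1 of its 2, the CARINH summit stood above 98.9% of the list, and 6 pathway genes in place of 10 had a summit. Pathway genes with a summit also numbered 6 within 10 kb of the TSS, 5 within 1 kb and 6 with the RefSeq span extended by 10 kb. The limits on score and distance admit fewer summits by construction. For the extended span the cause was not tested. Of the 5 members with promoter windows, 1 held the IRF element, 0 the longer core, 2 the shorter pair and 1 the ETS-IRF composite. Merging summits under 200 bp apart, widening the locus window by 0.5 Mb on each side, or taking the IRF1 span with 100 kb of flank changed no count. Without a dense block on chromosome 21, the percentiles of the CARINH and IRF1 summits were 99.41 and 4.10, against 99.4 and 4.93 in the whole list. Depth per summit is unknown.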

Other observations

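The 13 promoter windows with 3 or more IRF elements belonged to 13 genes, of which 6 had a summit in the window. Of all 35116 promoter windows, 302 held a summit. Besides CARINH (250.0) these were IFI6, an interferon-induced mitochondrial protein gene (94.6), IFIH1, which encodes the RNA sensor MDA5 (59.8), C2CD2 (43.0), and HERC5, a ligase for ISG15, with LOC102723458, whose windows share 1 summit (10.4). These genes were picked after their values were seen. CARINH and LOC102723458 are the non-coding genes among these 6.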
